A study of Mus musculus with 6 samples.

Results

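The integrated stress response was examined through 10 of its genes in mouse liver: Atf4, Atf3, Ddit3, Trib3, Asns, Chac1, Sesn2, Psat1, Ppp1r15a and Ddit4. They were chosen by name as genes of the ATF4 and CHOP branch of that response, and all 10 were found among the 28880 genes of the deposited table. RNA was sequenced from livers of 3 acute ethanol-exposed and 3 control mice, all male wild-type C57BL/6J animals of 6 to 8 weeks. Ethanol-exposed mice were fasted for 12 h, received 50% (v/v) ethanol once by oral gavage at 6 g/kg, and were sampled 24 h later. Control mice are described only as kept without ethanol, and whether they were fasted or gavaged with vehicle is not given in the sources used here, so that effects of ethanol and of the fast cannot be told apart. The comparison asks how liver expression of these genes differs between the groups.

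In this response, kinases that sense amino acid shortage, unfolded protein in the endoplasmic reticulum (ER), viral RNA or haem shortage phosphorylate the translation factor eIF2. General translation then falls while the mRNA of the transcription factor ATF4 is translated more, so that ATF4 protein can rise with little change in its mRNA. ATF4 and its partners drive genes for amino acid supply, for redox balance and for feedback on the pathway, and under lasting stress the factor CHOP, encoded by Ddit3, is linked to cell death.

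The libraries held 60514417 to 74210869 counts on genes, and counting error was therefore small except for the lowest genes. Levels within a gene are given as CPM, the gene's counts over the library size scaled by edgeR's TMM factors, which were 0.768 to 0.836 in ethanol-exposed and 1.258 to 1.265 in control mice. Levels between genes are given as the deposited FPKM, which is scaled to transcript length. Ethanol mouse 3 stood apart from ethanol mice 1 and 2 on the second principal component, with scores of -88.7 against 33.4 and 51.7, and results are therefore also given without it. Summed markers of hepatocytes lay between 138229 and 144704 CPM in ethanol-exposed and between 77602 and 88743 CPM in control mice, with 3 of 10 upregulated and none at 0 in either group. These sums carry the TMM factors, which were lower in ethanol-exposed mice. The gap between the groups therefore depends on the scaling. With library size alone the groups would overlap, with ethanol mouse 3 below control mouse 1. In whole liver, fewer cells of a type and less RNA per cell cannot be told apart.

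Of the 10 genes, 4 were upregulated in ethanol-exposed mice, none was downregulated and 6 were not called. Across the 16717 genes tested, 10.4% were upregulated and 13.8% downregulated, 24.2% in either direction. A call required an adjusted p under 0.05 by the quasi-likelihood test of edgeR, adjusted by the Benjamini-Hochberg method over all genes tested, and a log2 fold change beyond 1. The upregulated genes were Atf3, Chac1, Ddit4 and Ppp1r15a. Atf4 and Ddit3, which encode the factors for which the branch is named, were not called. No gene of the 10 was lower at an unadjusted p under 0.05 in this edgeR fit, nor called lower by DESeq2 or limma, although library size alone called Psat1 lower. Without ethanol mouse 3, 5 genes were upregulated, with Trib3 added, against 10.9% of all genes in that fit. DESeq2 on all libraries called 6 higher, with Trib3 and Asns added, against 7.28% of the 26419 genes it tested. Adjusted p was under 0.05 for 4 of the 10 genes, against 43% of all genes tested, and the groups did not overlap for 6 of the 10, against 59% of all genes, both shares near the background. The median log2 fold change was 1.17 over the 10 genes and -0.04 over all genes.

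**Figure D1:**
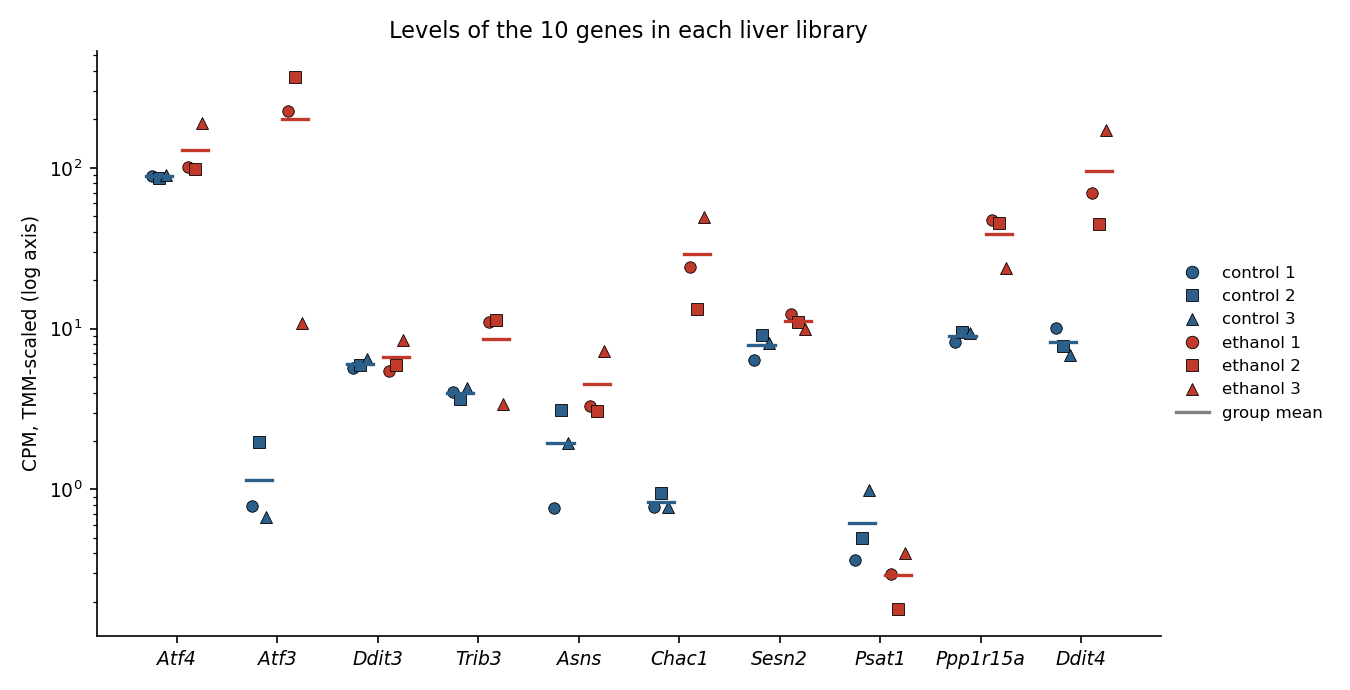
Level of each of the 10 genes in every liver library, in CPM on a log axis, with controls in blue, ethanol-exposed mice in red, a symbol per replicate number and bars for group means. The groups separate widely for Atf3, Chac1, Ppp1r15a and Ddit4, while Ddit3, Trib3, Asns and Psat1 overlap.

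ATF4 is the transcription factor at the centre of the response. Atf4 (ENSMUSG00000042406, chromosome 15, 80139385 to 80141742, plus strand, in the coordinates of the deposited table, whose build could not be matched to the one in the submitters' notes) was at 102, 97.6 and 189 CPM in ethanol mice 1, 2 and 3. Control mice had 88.7, 86.0 and 90.3 CPM. The groups did not overlap, but ethanol mice 1 and 2 lay just above the controls and mouse 3 well above them. The log2 fold change was 0.55 (standard error 0.25, unadjusted 95% interval -0.04 to 1.14, adjusted p = 0.116), and it was 0.18 without ethanol mouse 3 (adjusted p = 0.0684). Its sign depended on the scaling, since library size alone gave -0.13, and limma on log2(FPKM + 1), which also changed the unit and the test, gave -0.18. In FPKM, Atf4 was at 31.2, 32.3 and 57.5 in ethanol-exposed mice and at 44.5, 43.0 and 45.1 in controls, so that the groups overlapped on that scale.

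CHOP, the product of Ddit3, is a transcription factor that ATF4 induces. Ddit3 (ENSMUSG00000025408, chromosome 10, 127126643 to 127132157, plus strand) was at 5.42, 5.92 and 8.50 CPM in ethanol-exposed mice and at 5.68, 5.95 and 6.50 CPM in controls. Only ethanol mouse 3 lay above the control range. The log2 fold change was 0.13 (standard error 0.21, 95% interval -0.36 to 0.62, adjusted p = 0.637), and it turned to -0.08 without ethanol mouse 3, to -0.54 with library size alone and to -0.44 with limma on log2(FPKM + 1). When only genes averaging 1 FPKM or more were fitted, the limma value had an adjusted p of 0.02503 but did not reach the fold threshold. Ddit3 overlaps Mars1 on the other strand, from 127132090 to its own end at 127132157. Over its whole length Mars1 held 2589 to 5078 counts per library, against 312 to 535 on Ddit3. Whether counting used strand is not given in the sources used here, so Ddit3 counts from that stretch are uncertain.

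ATF3, a stress-induced transcription factor of the same basic leucine zipper family, had the largest change of the 10 genes. Atf3 (ENSMUSG00000026628, chromosome 1, 190902493 to 190950236, minus strand) was at 226, 365 and 10.8 CPM in ethanol mice 1, 2 and 3. In control mice it was at 0.788, 1.97 and 0.668 CPM, from 55 to 150 counts. Every ethanol-exposed mouse lay above every control, yet mice 1 and 2 together averaged 27.3 times the level of mouse 3. Atf3 was upregulated by 7.47 on the log2 scale (standard error 1.32, adjusted p = 0.00418). The log2 fold change was 8.05 without ethanol mouse 3, 6.71 without ethanol mouse 2 and 8.10 without control mouse 2.

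Chac1 encodes a glutathione-degrading gamma-glutamylcyclotransferase. Chac1 (ENSMUSG00000027313, chromosome 2, 119181710 to 119184862, plus strand) was at 24.3, 13.2 and 49.2 CPM in ethanol-exposed mice and at 0.778, 0.945 and 0.777 CPM in controls. The lowest ethanol-exposed mouse was far above the highest control, and here mouse 3 was the highest. The rise was 5.12 on the log2 scale (standard error 0.51, adjusted p = 0.000481), a ratio of group means of 34.7. Leaving out ethanol mouse 3 gave 4.50, and leaving out ethanol mouse 2 gave 5.46.

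Ddit4 encodes REDD1, an inhibitor of mTORC1 signalling. Ddit4 (ENSMUSG00000020108, chromosome 10, 59785491 to 59787656, minus strand) was at 70.0, 44.4 and 173 CPM in ethanol-exposed mice and at 10.1, 7.76 and 6.86 CPM in controls. The groups were well apart, with ethanol mouse 3 at 3.02 times the mean of mice 1 and 2. Its log2 fold change was 3.54 (standard error 0.51, adjusted p = 0.0019), and 2.81 without ethanol mouse 3.

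Ppp1r15a encodes GADD34, a regulatory subunit of the phosphatase that removes the phosphate from eIF2 and so closes the feedback loop. Ppp1r15a (ENSMUSG00000040435, chromosome 7, 45172340 to 45175692, minus strand) was at 47.4, 45.4 and 23.8 CPM in ethanol-exposed mice and at 8.25, 9.45 and 9.41 CPM in controls. All ethanol-exposed mice were above the controls, and mouse 3 was the lowest of them. The gene was upregulated by 2.11 on the log2 scale (standard error 0.26, adjusted p = 0.00109). Its constitutive counterpart Ppp1r15b was at 68.5, 63.8 and 93.2 CPM in ethanol-exposed and at 71.2, 65.4 and 62.5 CPM in control mice, with a log2 fold change of 0.18 (adjusted p = 0.391).

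Trib3 encodes a pseudokinase that restrains ATF4 and CHOP activity. Trib3 (ENSMUSG00000032715, chromosome 2, 152179342 to 152185952, minus strand) was at 10.95, 11.36 and 3.41 CPM in ethanol-exposed mice and at 4.05, 3.65 and 4.27 CPM in controls. Ethanol mice 1 and 2 were above all controls, whereas mouse 3 was below them. The log2 fold change of 1.10 (standard error 0.42, 95% interval 0.12 to 2.09) was not called (adjusted p = 0.07). Without ethanol mouse 3 it was 1.49 and called (adjusted p = 0.000106), and DESeq2 on all libraries also called it (1.08, adjusted p = 0.0236).

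Sesn2 encodes sestrin 2, a leucine sensor that restrains mTORC1 through the GATOR complexes. Sesn2 (ENSMUSG00000028893, chromosome 4, 132219343 to 132237812, minus strand) was at 12.3, 11.1 and 9.90 CPM in ethanol-exposed mice and at 6.33, 9.16 and 8.09 CPM in controls. The groups did not overlap but almost touched. The log2 fold change of 0.50 (standard error 0.18, 95% interval 0.07 to 0.92, adjusted p = 0.0599) was not called, and it turned to -0.17 with library size alone and to -0.12 with limma on log2(FPKM + 1).

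Asns and Psat1 are biosynthetic targets of ATF4, for asparagine and serine. Asns (ENSMUSG00000029752, chromosome 6, 7675169 to 7693254, minus strand), asparagine synthetase, was at 3.32, 3.06 and 7.27 CPM in ethanol-exposed mice and at 0.767, 3.10 and 1.94 CPM in controls. The groups overlapped through control mouse 2 and ethanol mouse 2. Its log2 fold change of 1.24 (standard error 0.55, 95% interval -0.06 to 2.53, adjusted p = 0.109) was not called by edgeR, while DESeq2 called it (1.20, adjusted p = 0.0499). It was 0.73 without ethanol mouse 3, 0.85 without control mouse 1 and 1.75 without control mouse 2, none of them called. Psat1 (ENSMUSG00000024640, chromosome 19, 15882042 to 15924701, minus strand), phosphoserine aminotransferase, was the lowest of the 10 genes, at 17, 11 and 22 counts in ethanol-exposed mice and 34, 38 and 81 in controls. In CPM these were 0.295, 0.180 and 0.403 against 0.362, 0.499 and 0.984, with ethanol mouse 3 above control mouse 1. Its log2 fold change was -1.07 (standard error 0.56, 95% interval -2.39 to 0.25, adjusted p = 0.163), and it was called lower only with library size alone (-1.74, adjusted p = 0.0301), while leaving out control mouse 3 gave -0.56 (adjusted p = 0.5325).

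**Figure D2:**
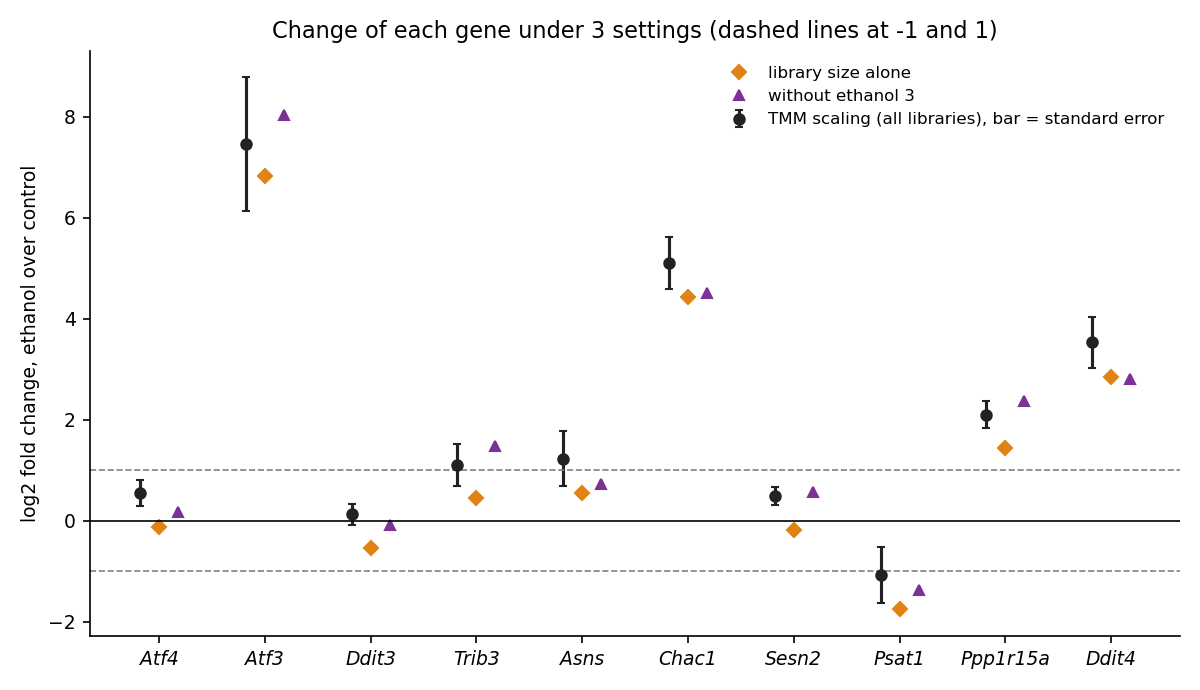
Log2 fold change of ethanol-exposed over control mice for each gene with TMM scaling (black, bars show the standard error), with library size alone (orange) and without ethanol mouse 3 (purple). Atf3, Chac1, Ddit4 and Ppp1r15a stay above the dashed line at 1 in these 3 settings, and Atf4, Ddit3 and Sesn2 lie on both sides of 0.

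The ethanol-exposed mice differed among themselves. Ethanol mouse 3 was the highest of its group for Atf4, Ddit3, Asns, Chac1, Psat1 and Ddit4 and the lowest for Atf3, Trib3, Sesn2 and Ppp1r15a. Among all genes tested it was the highest of its group for 40.5% and the lowest for 39.1%, so that an extreme position was common for that mouse. The ratio of the highest to the lowest ethanol-exposed mouse had a median of 2.31 over the 10 genes against 1.55 over all genes tested, and in control mice these medians were 1.33 and 1.24. Atf3, at 33.8, was beyond a ratio of 5, which 6.72% of all genes exceeded. Summed neutrophil markers were at 3.18, 3.91 and 15.1 CPM in ethanol mice 1, 2 and 3 and at 1.15 to 1.84 CPM in controls, with 4 of the 5 tested of 8 upregulated and Mpo at 0 in every ethanol-exposed mouse. In controls S100a8, Cxcr2 and Retnlg were at no more than 0.0486, 0.121 and 0.0852 CPM. They passed the filter on low counts through the ethanol-exposed mice, so the count of rises was partly set by that filter. Erythroid markers summed to 579 to 864 CPM in ethanol-exposed and 180 to 220 CPM in control mice, with 4 of the 5 tested upregulated. The part of either cell type in the levels of the stress genes was not tested.

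**Figure D3:**
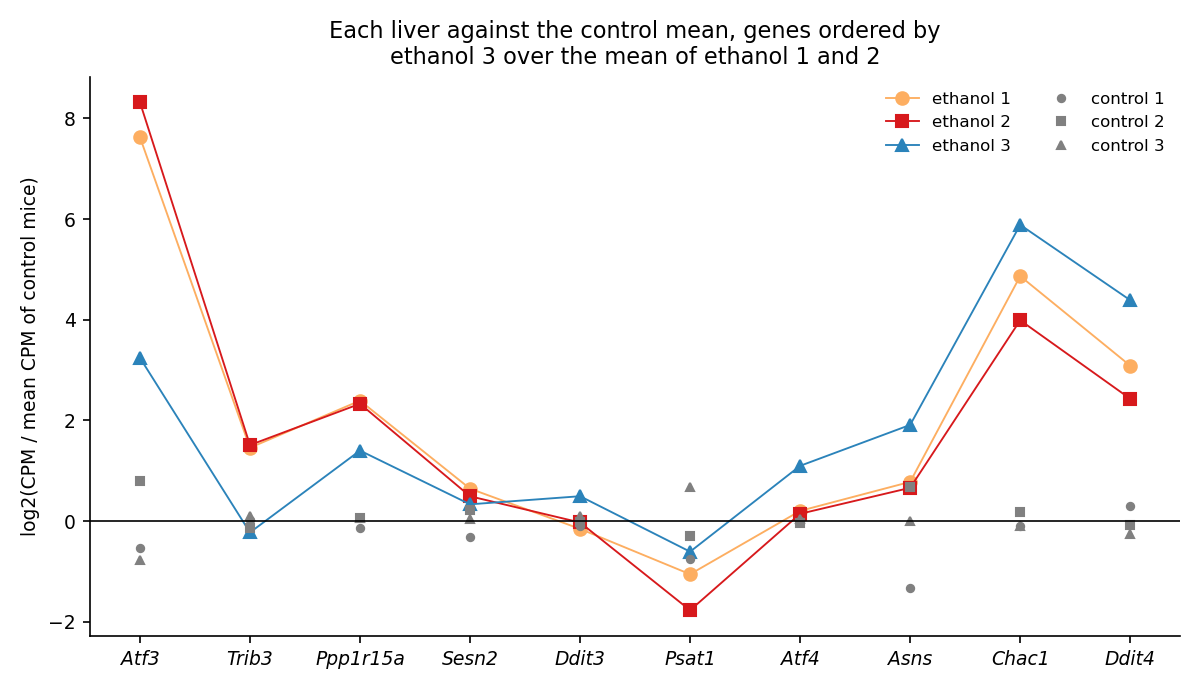
Log2 ratio of each library to the control mean in CPM, with genes ordered by ethanol mouse 3 over the mean of ethanol mice 1 and 2, lines joining the genes of each ethanol-exposed mouse and grey symbols for controls. Ethanol mouse 3 lies below the other two at Atf3, Trib3, Ppp1r15a and Sesn2 and above them at the other genes.

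Between genes, the order of levels changed with exposure. In control mice Atf4 led at 44.2 ± 1.08 FPKM (SD, n = 3), followed by Ddit4 at 5.54 ± 1.15, Ddit3 at 4.15 ± 0.277, Ppp1r15a at 3.62 ± 0.263, Sesn2 at 2.66 ± 0.480 and Trib3 at 2.21 ± 0.175 FPKM. Asns, Atf3 and Chac1 followed at 0.824 ± 0.500, 0.622 ± 0.393 and 0.595 ± 0.0707 FPKM, and Psat1 was last at 0.166 ± 0.0893 FPKM. The ranges of Sesn2 and Trib3, and those of Asns, Atf3 and Chac1, overlapped, while the other neighbours were separate. In ethanol-exposed mice the order was Atf3 at 70.6 ± 64.5, Atf4 at 40.3 ± 14.8, Ddit4 at 39.7 ± 27.1, Chac1 at 12.9 ± 7.85 and Ppp1r15a at 9.86 ± 3.51 FPKM, each overlapping its neighbour. Below them, and separate from Ppp1r15a, were Trib3 at 3.01 ± 1.63, Ddit3 at 2.84 ± 0.646 and Sesn2 at 2.36 ± 0.279 FPKM, whose neighbours also overlapped. Asns at 1.21 ± 0.592 and Psat1 at 0.0474 ± 0.0180 FPKM came last and were separate from their neighbours.

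A ratio of genes within a library does not depend on the scaling between libraries, and each gene was therefore also set against Atf4. For 6 of the 9 ratios the groups did not overlap, and for 4 of the 9 with log2(FPKM + 1). In log2 FPKM, the ratio to Atf4 did not overlap between the groups for 50.4% of the 15192 tested genes with an FPKM above 0 in every library. The log2 ratio in FPKM was higher in ethanol-exposed than in control mice by 6.10 for Atf3, 4.45 for Chac1, 2.84 for Ddit4 and 1.56 for Ppp1r15a. It differed by -0.38 for Ddit3 and by -1.56 for Psat1. Each of these 6 had p = 0.1 in an exact two-sided permutation test, the smallest p that 3 against 3 libraries allow, or 0.15 after adjustment over the 9 ratios. Groups overlapped for Trib3 (0.44, exact p = 0.7), Asns (0.87, exact p = 0.3) and Sesn2 (0.02, exact p = 1).

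Promoters of the 10 genes were searched because ATF4 binds with C/EBP factors to composite elements and related factors bind the cyclic AMP response element. Those printed, of Chac1, Atf3, Asns and Ppp1r15a, are the ones with a match before the gene start. Ddit4, which was upregulated, and the other genes had no match there and are not printed. Sequences are the 250 bases before the gene start in RefSeq (GRCm38.p6), 5′ to 3′ on the gene's strand, and searches covered these bases and the 50 after the start on both strands. Capitals mark TGATGNAA, the letters used for the composite element, or its reverse complement, and in Ppp1r15a TGACGTCA, the letters of the cyclic AMP response element. All 10 genes had a window.
Chac1, chr2:119350992-119351241, plus strand: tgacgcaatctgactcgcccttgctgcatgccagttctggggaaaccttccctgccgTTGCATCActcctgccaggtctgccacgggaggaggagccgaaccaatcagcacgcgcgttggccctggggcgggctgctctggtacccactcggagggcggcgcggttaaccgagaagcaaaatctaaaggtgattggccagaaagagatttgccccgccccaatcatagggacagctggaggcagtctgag
Atf3, chr1:191183334-191183583, minus strand: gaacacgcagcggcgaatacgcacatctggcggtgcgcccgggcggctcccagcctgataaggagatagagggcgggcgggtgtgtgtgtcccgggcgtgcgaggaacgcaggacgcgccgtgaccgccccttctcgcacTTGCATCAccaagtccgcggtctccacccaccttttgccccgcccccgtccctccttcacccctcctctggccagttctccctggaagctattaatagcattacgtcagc
Asns, chr6:7693210-7693459, minus strand: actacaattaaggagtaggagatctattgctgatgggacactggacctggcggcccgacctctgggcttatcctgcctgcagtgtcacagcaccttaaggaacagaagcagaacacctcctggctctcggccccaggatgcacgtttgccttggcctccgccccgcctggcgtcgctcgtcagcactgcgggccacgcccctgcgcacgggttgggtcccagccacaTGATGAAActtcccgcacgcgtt
Ppp1r15a, chr7:45526269-45526518, minus strand: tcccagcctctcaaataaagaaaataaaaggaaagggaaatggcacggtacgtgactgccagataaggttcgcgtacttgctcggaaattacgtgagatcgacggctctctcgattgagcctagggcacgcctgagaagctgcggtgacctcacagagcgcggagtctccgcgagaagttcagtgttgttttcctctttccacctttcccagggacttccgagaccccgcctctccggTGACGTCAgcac

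The composite letters occurred in 4 of the 10 genes, against 4.51% of the 27025 genes and 3.97% of the 32851 windows searched. They began at position -193 in Chac1, -110 in Atf3 and -23 in Asns relative to the gene start, and downstream of the start in Trib3, as TTACATCA. On the gene's own strand alone they were in Asns only. Chac1 and Atf3 were upregulated, whereas Asns and Trib3 were not called. The letters of the cyclic AMP response element, which shared no window of these genes with the composite letters, occurred in Ppp1r15a at position -12 and in no other of the 10 genes, against 2.03% of all genes. Ddit4 rose 3.54 on the log2 scale with neither set of letters in its window. A match is a description of letters and no evidence of binding.

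Genes around these 10 were counted in 9 lists of the pathway. Of 124 list genes tested, 19 were upregulated (15.3%, against 10.4% of all genes), 9 were downregulated (7.3%, against 13.8%) and 96 were not called, with a median log2 fold change of -0.002, against -0.04 over all genes. The counts moved with the scaling as those of all genes did. Upper quartile scaling called 17 list genes higher and 15 lower (13.7% and 12.1%, against 9.01% and 15.6% of all genes), and library size alone called 12 and 37 (9.68% and 29.8%, against 5.06% and 32.2%). Called in either direction were 37.3% of all genes with library size alone, 24.6% with upper quartile scaling, and 7.83% and 21.4% of the 26459 genes tested with limma on log2(FPKM + 1) and log2(FPKM + 0.1). That limma fit with a pseudocount of 1, which also changed the unit and the test, called 8 list genes higher and 26 lower. These were 6.45% and 21% of the list genes, against 1.43% and 6.4% of all genes. The list share of lower calls was thus above that of all genes, opposite to the main fit. Called genes are named in full, and those beyond the largest rise and fall of each list were added after their values were seen. None of the 28 called genes changed sign under the alternatives in which it was tested, but many calls were lost. Calling on the adjusted p alone and glmTreat kept the fold changes of the main fit, so no sign could change there. Library size alone kept 21 of the 28, ending the calls of Eif2ak4, Vldlr, Eif4ebp1, Gpt2, Pmaip1, Xbp1 and Sesn1. With limma on log2(FPKM + 1) 16 were kept, with Jdp2, Gdf15, Mthfd1l, Mthfd2 and Slc6a9 lost besides these, and glmTreat kept 15.

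Among 20 sensor kinases and eIF2 components, 1 was upregulated and none downregulated (median -0.02), and 4 were called with library size alone, where 37.3% of all genes were. That gene was Eif2ak4, the amino acid sensor GCN2, at 17.3, 15.6 and 10.2 CPM in ethanol-exposed and 7.11, 6.37 and 6.46 CPM in control mice. Its log2 fold change was 1.11 (standard error 0.21, adjusted p = 0.00549), and it was 0.96 without ethanol mouse 1, 0.45 with library size alone (adjusted p = 0.1231) and 0.234 with limma on log2(FPKM + 1), none of them called. The ER sensor kinase PERK, encoded by Eif2ak3, was not called at -0.25 on the log2 scale (adjusted p = 0.381).

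Partner and downstream regulators moved in both directions, with 6 of 15 upregulated, 3 downregulated and a median of 0.23. Cebpd, a C/EBP factor, had the largest rise, at 92.0, 92.3 and 59.1 CPM in ethanol-exposed and 4.63, 4.72 and 5.14 CPM in control mice, or 4.07 higher on the log2 scale (standard error 0.21, adjusted p = 6.791e-05). Cebpb, another C/EBP factor, rose by 3.30, the stress cytokine Gdf15 by 2.80, Jdp2 by 2.78 and the translation repressor Eif4ebp1 by 1.67 on the log2 scale. Vldlr was called at 1.27 (adjusted p = 0.0477), a call lost when any single library except ethanol mouse 3 was left out. Atf5, a transcription factor related to Atf4, had the largest fall, from 163, 135 and 134 CPM in controls to 28.5, 26.8 and 35.2 CPM (log2 fold change -2.26, adjusted p = 0.0001233), and Cebpg (-1.29) and Nfe2l1 (-1.23) also fell. The hormone gene Fgf21 was low in both groups, at no more than 0.623 CPM in any library, and was not called.

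Of 11 serine, one-carbon and amino acid enzymes tested, 3 rose, 1 fell and 7 were not called (median 0.13). Got1, cytosolic aspartate aminotransferase, rose by 3.79 (standard error 0.24, adjusted p = 9.935e-05), Mthfd1l by 2.31 and the alanine aminotransferase gene Gpt2 by 1.05 on the log2 scale, the last not called without ethanol mouse 2 (0.97) or control mouse 2 (0.999), with library size alone (0.387) or with limma on log2(FPKM + 1) (0.372). Mthfd2, a mitochondrial folate enzyme, was downregulated at -1.39 (adjusted p = 0.0191), a call lost without control mouse 2 (adjusted p = 0.0757) or control mouse 3 (adjusted p = 0.0697). Phgdh, the first enzyme of serine synthesis, did not pass the filter on low counts. Of 13 tRNA synthetases none rose and 1 fell (median -0.30), and 6 were called with library size alone, where 37.3% of all genes were. Limma called 5 on log2(FPKM + 1), where 7.83% of all genes were called, and 6 with a pseudocount of 0.1, where 21.4% were. In the main fit the gene that fell was Yars1 at -1.02 (adjusted p = 0.00807). It did not reach -1 without ethanol mouse 1 (-0.83), control mouse 1 (-0.98) or control mouse 2 (-0.975).

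Of 8 amino acid transporters tested, 2 rose and none fell (median 0.45). Slc38a2, the neutral amino acid transporter SNAT2, was at 977, 966 and 640.1 CPM in ethanol-exposed and 112, 127 and 139 CPM in control mice, or 2.77 higher on the log2 scale (standard error 0.20, adjusted p = 0.0001662). The glycine transporter Slc6a9 rose by 1.72. Slc7a11, the cystine transporter, did not pass the filter.

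Of 11 genes of asparagine, serine and glutathione turnover, 2 rose, 2 fell and 7 were not called (median 0.06). Sds, serine dehydratase, rose by 3.69 on the log2 scale (standard error 0.17, adjusted p = 5.607e-05) and its relative Sdsl by 2.17. Chac2, the paralog of Chac1, was at 4.62, 7.46 and 3.99 CPM in ethanol-exposed and 20.9, 17.9 and 23.8 CPM in control mice, a fall of 1.96 opposite to that of Chac1 (log2 fold change -1.96, adjusted p = 0.00132). Gclc, the catalytic subunit of glutathione synthesis, was downregulated at -1.42 (adjusted p = 0.0202), a call lost without ethanol mouse 1 or any control mouse.

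Among 7 death and ER oxidation genes linked to CHOP, 2 rose and none fell (median 0.65). Bcl2l11, which encodes the death-promoting protein BIM, was at 46.4, 47.8 and 11.7 CPM in ethanol-exposed and 3.59, 2.22 and 2.50 CPM in control mice (log2 fold change 3.67, standard error 0.54, adjusted p = 0.0021). Pmaip1 was called at 1.80 (adjusted p = 0.0302) from levels of no more than 0.670 CPM, a call likewise lost with each library but ethanol mouse 3 left out.

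Chaperone genes of the other ER stress branches, ATF6 and XBP1, had 2 rises, 2 falls and 16 genes not called of 20 (median -0.28). With library size alone 8 were called, where 37.3% of all genes were. Limma called 8 on log2(FPKM + 1), where 7.83% of all genes were called, and 9 with a pseudocount of 0.1, where 21.4% were. Herpud1, a gene of ER-associated degradation, was at 704, 873 and 1373 CPM in ethanol-exposed and 267, 286 and 262 CPM in control mice (log2 fold change 1.86, adjusted p = 0.00136). Xbp1 had a log2 fold change of 1.15, and was not called without ethanol mouse 3 (0.81), with library size alone (0.465, adjusted p = 0.1187) or with limma on log2(FPKM + 1) (0.403). Ern1, which encodes the sensor IRE1, fell by 1.55 and Pdia4, a disulfide isomerase, had a log2 fold change of -1.17, and of -0.92 without ethanol mouse 1. Hspa5, which encodes the chaperone BiP, was at 829.6, 1519.6 and 1605 CPM in ethanol-exposed and 823, 941 and 923 CPM in control mice (0.56, adjusted p = 0.102).

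Of 19 mTORC1 and GATOR regulators tested around Sesn2 and Ddit4, 1 rose and none fell (median -0.25). Library size alone called 9 and upper quartile scaling 4, where 37.3% and 24.6% of all genes were called. Limma called 4 on log2(FPKM + 1), where 7.83% of all genes were called, and 9 with a pseudocount of 0.1, where 21.4% were. Sesn1, a paralog of Sesn2, was at 39.4, 45.9 and 15.4 CPM in ethanol-exposed and 10.9, 10.9 and 10.8 CPM in control mice (log2 fold change 1.63, standard error 0.36, adjusted p = 0.0107). It was not called with library size alone (0.977, adjusted p = 0.05988) or limma on log2(FPKM + 1) (0.68, adjusted p = 0.2181). Ethanol mouse 3 was the lowest of its group for Sesn1 as it was for Sesn2.

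**Figure D4:**
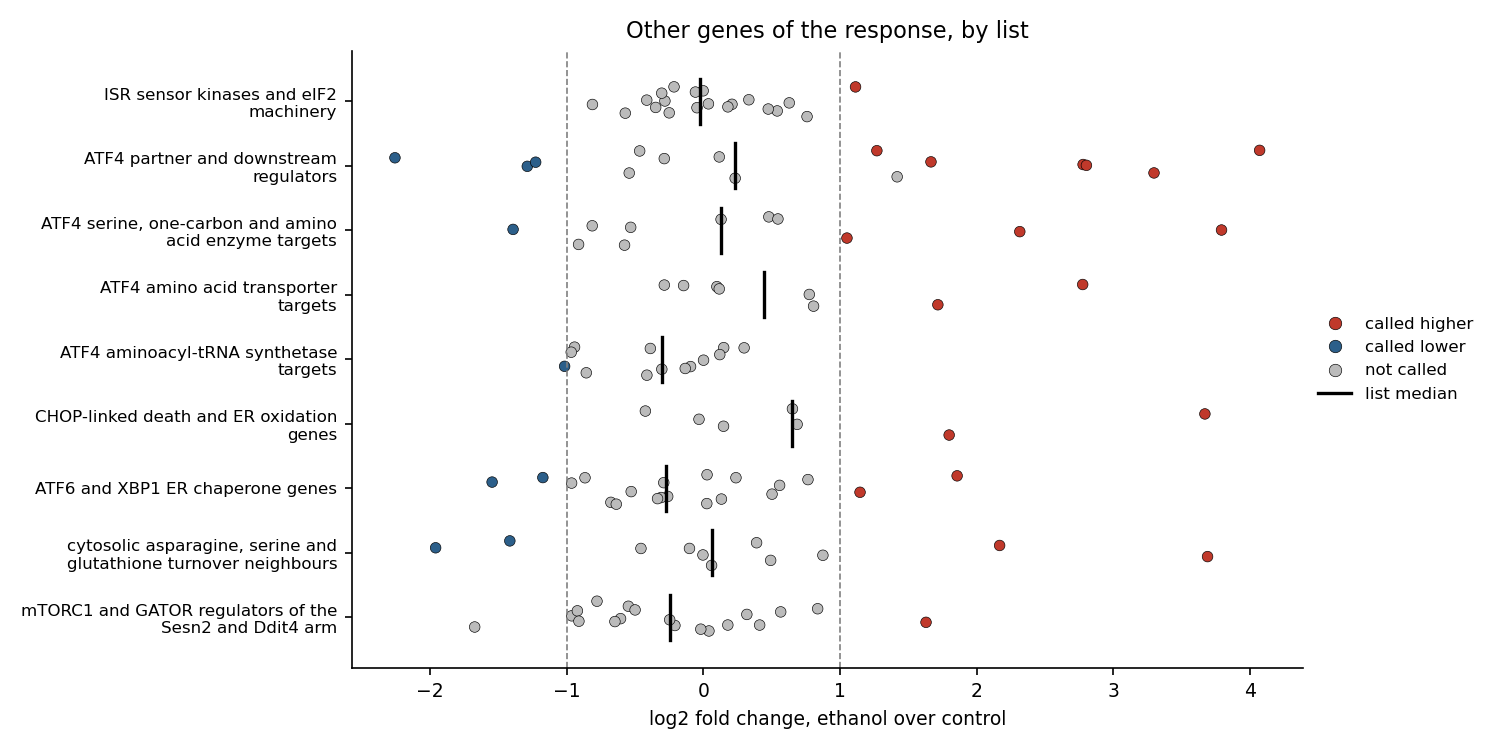
Log2 fold change of ethanol-exposed over control mice for every tested gene of the 9 pathway lists, with upregulated genes in red, downregulated genes in blue, genes not called in grey, list medians as black bars and dashed lines at -1 and 1. The partner regulators hold 6 of the 19 rises, and the tRNA synthetases show none.

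Genes with the profile nearest to that of Atf4 over the 6 libraries were Raly, Ddx20 and Baat, among 11222 genes searched. Their root mean square difference from Atf4 in centred log2 CPM was 0.071, 0.072 and 0.074, against a median of 0.531 over all genes. For Ddit3 the nearest were Map3k1, Fastk and Kdsr, at 0.049, 0.050 and 0.053 against a median of 0.430. Raly was at 43.7, 39.9 and 83.2 CPM in ethanol-exposed and 39.2, 41.1 and 41.7 CPM in control mice, high in ethanol mouse 3 alone as Atf4 was.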

How the data were processed

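Liver RNA-seq of 3 acute ethanol-exposed and 3 control mice was analysed, grouped by the sample labels, which place all libraries in the same batch. The authors extracted RNA with TRIzol, sequenced paired ends of 150 bp on a NovaSeq, trimmed the reads and aligned them with a pipeline whose aligner and counter are not given in the sources used here. The submitters' notes list GRCm38 and mm10, but of 27049 gene identifiers shared with a GRCm38 annotation only 539 had the same start and end in the deposited table (1 of the 10 genes), so table coordinates carry no build. The authors deposited whole-number read counts per gene, which were not normalized, and beside them an FPKM per gene, scaled to transcript length and library size. A further column of counts, 1 in all, matched no sample and was not used.

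Counts were filtered by filterByExpr, scaled by TMM and tested two-sided by edgeR 4.0.16 (quasi-likelihood, prior count 2) in R 4.3.3, without covariates, with Benjamini-Hochberg adjustment over 16717 genes, at the study's thresholds (adjusted p under 0.05, log2 fold change beyond 1). Tests were checked on simulated data. These held neither the difference in scaling between the groups nor the deviation of ethanol mouse 3, so the check does not cover them. Alternatives used limma 3.58.1, DESeq2 1.42.0, other scalings, filters and pseudocounts, glmTreat, removal of the trend with gene length, the replicate number as a block, and each library left out in turn. Libraries of a group differed beyond sampling noise (chi-square over its degrees of freedom, 53.9 to 545), so none was a duplicate. With 60514417 to 74210869 counts per library, the 3 mice per group limit the precision, and p-values measure the spread between these libraries. By rule, named genes are the 10 genes, the called gene with the largest rise and fall of each list, and the 3 nearest profiles to Atf4 and to Ddit3 by root mean square difference in log2 CPM, among genes with a median of at least 1 CPM. The other called list genes, and Ppp1r15b, Eif2ak3, Fgf21, Phgdh, Slc7a11 and Hspa5, which were not called, were named after their values were seen. The 10 genes, the lists and the tests were chosen with earlier results of these data known. Sets of markers of Kupffer cells, endothelium, stellate cells, cholangiocytes, monocytes, T cells and B cells were also counted, with 1 of 10, 2 of 8, 0 of 8, 1 of 5, 1 of 4, 0 of 4 and 0 of 6 tested genes upregulated and 0, 3, 2, 0, 1, 1 and 1 downregulated.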

Additional observations from a re-analysis of the deposited data

How the results depend on the processing

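Atf3, Chac1, Ppp1r15a and Ddit4 were called higher in all 18 or 19 alternatives in which each was tested, with log2 fold changes of 4.50 to 8.10, 2.97 to 5.46, 1.17 to 2.37 and 2.45 to 3.87. Of 183 values of single genes under the alternatives, 166 kept direction and side of the threshold, 4 became called and 13 reversed. Calling on the adjusted p alone and glmTreat kept the fold changes of the main fit, so their directions could not differ. On the adjusted p alone no call could be lost either. With library size alone, Atf4 was at -0.13, Ddit3 at -0.54 and Sesn2 at -0.17, 1 of the 10 genes (Psat1) was called lower and 49 pathway genes were called in place of 28, 12 higher and 37 lower. That scaling moved the median of all genes from -0.04 to -0.71, and 86.4% of calls were then lower in place of 57% (63.4% with upper quartile scaling and 50.2% with the length trend removed). Relative to the median of all genes, Atf4 was then at 0.58, Ddit3 at 0.17 and Sesn2 at 0.54, but with limma on log2(FPKM + 1) they were at -0.117, -0.368 and -0.052, and with a pseudocount of 0.1 at 0.112, -0.251 and 0.142, and when only genes averaging 1 FPKM or more were fitted at 0.256, 0.005 and 0.32. With limma on log2(FPKM + 1), with or without a mean FPKM of at least 1, Atf4 was at -0.18, Ddit3 at -0.44 and Sesn2 at -0.12, the median of the 10 genes was 0.255 (0.285 with the minimum) and 81.7% (80.5%) of calls were lower. With a pseudocount of 0.1 these genes were at -0.19, -0.55 and -0.16, and 87.3% of calls were lower. That fit called 50 pathway genes (11 higher, 39 lower, 20 of the 28 kept). These were 8.87% and 31.5% of the list genes, against 2.72% and 18.7% of all genes. The list share of lower calls was thus above that of all genes, opposite to the main fit. On the adjusted p alone 61 pathway genes were called (24.2% higher and 25% lower, against 21.5% and 21.5% of all genes). With glmTreat 15 were called (10.5% higher and 1.61% lower, against 4.73% and 4.67% of all genes). At 10 CPM or more in 3 libraries, 4 of the 10 genes were tested, with a median of 2.743. In controls Chac1 was at no more than 0.945 CPM and Ddit4 at 6.86 to 10.1 CPM. Both thus passed this filter only through the ethanol-exposed mice, so this median depends on the rise itself and is no comparison with the main one. Composite letters on the gene's strand alone were in 1 gene. The causes of these shifts were not tested.

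When single libraries were left out, 4 to 5 of the 10 genes were called, 5 without ethanol mouse 3, and Ddit3 ranged from -0.0803 to 0.252. The replicate number as a replicate block left 4 genes called higher, 27 pathway genes called and a median of 1.142. Same-numbered libraries did not deviate together over all genes (correlations of -0.035, -0.021 and -0.017). These correlations cannot show a pairing that affects few genes. Depth limits Psat1 most, at 11 to 81 counts.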
